A study of Mus musculus with 16 samples.

Results

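The tumor necrosis factor (TNF) superfamily, its receptors and the TRAF adaptors were followed in the ventricles of WT mice and of BACHD mice, a mouse model of Huntington's disease. Members were all probes of the bead array whose gene symbol began with Tnfrsf, Tnfsf or Traf and a digit, or was Tnf, Lta, Ltb, Ltbr, Fas, Fasl, Cd27, Cd40, Cd70, Eda2r or Ngfr. This gave 83 of the 25697 probes, and they named 50 of the 16593 gene symbols on the array. Of the 50 genes, 19 had more than 1 probe. Traf3 itself was not analysed here.

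BACHD mice carry full-length mutant human huntingtin on a bacterial artificial chromosome, so the transgene is present in the whole animal and is not limited to the heart. The controls were WT littermates on the same C57BL6/J background. There were 4 groups of 4 mice: WT and BACHD at 3 mo, which the sample labels call young, and WT and BACHD at 15 mo, which they call old. The labels give the tissue as heart and the methods as ventricles. Each of the 16 arrays was taken as 1 mouse, and mice are referred to by group and number.

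As background, TNF superfamily ligands are mostly trimeric proteins, held on the cell surface or shed from it, that cluster receptors of the TNF receptor superfamily. Some receptors carry a cytoplasmic death domain and can recruit FADD and caspase-8. Others bind TRAF adaptors, which pass the signal to NF-κB and to the MAP kinases, and decoy receptors bind ligand without passing on a signal. In the heart, TNF is best known as a cytokine raised in failure and injury, and the receptor Fn14 (Tnfrsf12a) as one induced by injury and mechanical load.

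The arrays were alike in depth of signal. The median intensity lay between 133 and 157 on the 16 arrays, 9780 to 10755 probes had a detection p-value below 0.01, and correlations between arrays ran from 0.984 to 0.994. All 7 measured cardiomyocyte markers were detected, and their mean log2 level lay between 13.12 and 13.34 on every array. The mean level of 7 atrial cardiomyocyte markers was raised on 4 of the 16 arrays. It was 7.82 and 8.82 in WT 15 mo mice 2 and 4 and 7.86 and 7.84 in BACHD 15 mo mice 3 and 4, against 6.64 to 6.98 on the other 12 arrays. Myl7, Myl4, Sln and, by a small margin, Dkk3 were each higher on these 4 arrays than on the other 12. Nppa, Kcnj3 and Bmp10 did not follow. Nppa was lowest of all 16 arrays in WT 15 mo mouse 2 (11.89) and highest in BACHD 15 mo mouse 2 (14.55). These 4 arrays are all from aged mice. Called age differences of the members and of the downstream genes are given with and without them, and those of the cell type markers only with them.

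The promoters of 3 of the 4 genes with a called probe in the comparisons below, Tnfsf13b, Tnfrsf19 and Tnfrsf25, are shown from RefSeq (build GRCm38.p6). Each has 2 windows of 250 bases before a start site, and those of Tnfsf13b overlap. The window with a match to one of the motifs searched is given. The other window of each gene held no match, and that of Tnfrsf19 directly precedes the annotated gene. The windows shown all lie within the annotated spans of their genes, before internal start sites. Capitals mark the matches.
Tnfsf13b, chr8:10006383-10006632, plus strand: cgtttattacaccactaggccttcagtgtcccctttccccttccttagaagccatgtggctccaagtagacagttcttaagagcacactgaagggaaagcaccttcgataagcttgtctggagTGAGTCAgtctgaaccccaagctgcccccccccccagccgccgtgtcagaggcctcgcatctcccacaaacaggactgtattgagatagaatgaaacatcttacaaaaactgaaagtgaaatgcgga
Tnfrsf19, chr14:61037988-61038237, minus strand: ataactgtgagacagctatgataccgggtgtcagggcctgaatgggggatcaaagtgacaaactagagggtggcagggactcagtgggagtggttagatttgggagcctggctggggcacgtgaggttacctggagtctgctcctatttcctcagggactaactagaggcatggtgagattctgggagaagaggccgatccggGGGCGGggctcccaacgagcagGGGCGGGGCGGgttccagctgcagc
Tnfrsf25, chr4:152116093-152116342, plus strand: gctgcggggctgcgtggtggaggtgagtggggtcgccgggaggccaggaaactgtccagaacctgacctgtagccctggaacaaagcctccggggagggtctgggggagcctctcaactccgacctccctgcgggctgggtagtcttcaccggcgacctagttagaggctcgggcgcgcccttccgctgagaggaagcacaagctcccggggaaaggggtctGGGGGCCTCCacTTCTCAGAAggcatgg

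The motifs were searched on both strands: the TATA box (TATAAA), the CCAAT box, the GC box (GGGCGG), the AP-1 motif (TGANTCA), a STAT motif (TTCNNNGAA) and the NF-κB consensus. The Tnfsf13b window held 1 AP-1 match, TGAGTCA, a motif found in 6.75% of 32851 RefSeq windows of this length. The Tnfrsf19 window held 3 GC boxes, of which 2 overlap by 1 base, and 32.7% of all windows hold a GC box. The Tnfrsf25 window held 1 match to the NF-κB consensus and 1 to the STAT motif, found in 7.25% and 7.02% of all windows. Over the 44 windows found for 40 member genes, 5 held the AP-1 motif, 21 the GC box, 8 the STAT motif, 4 the NF-κB consensus, 7 the TATA box and 8 the CCAAT box. The TATA and CCAAT boxes were in 12.4% and 33.8% of all windows. The windows shown were chosen for holding a match, so the shares of all windows are no test of them. These matches describe the letters only.

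Receptors and TRAFs were detected more often than ligands. On each array, a detection p-value below 0.01 counted as detection. A gene counted as detected where its most often detected probe was detected on at least 4 of the 16 arrays. By this rule 17 of the 50 genes were detected, 9 of them on all 16 arrays, and 32 were detected on none. Of the 83 probes 28.9% were detected, against 42.7% of all probes on the array. All 6 death domain receptors were detected (Fas, Tnfrsf1a, Tnfrsf10b, Tnfrsf21, Tnfrsf25 and Ngfr). Of 16 TRAF-binding receptors 4 were (Tnfrsf12a, Cd40, Ltbr and Tnfrsf19), and of 6 TRAFs 4 were (Traf2, Traf4, Traf6 and Traf7). Only Tnfsf13b passed among 16 ligands. A probe without signal can be a probe that fails, so a gene not detected here is not shown to be silent.

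**Figure D1:**
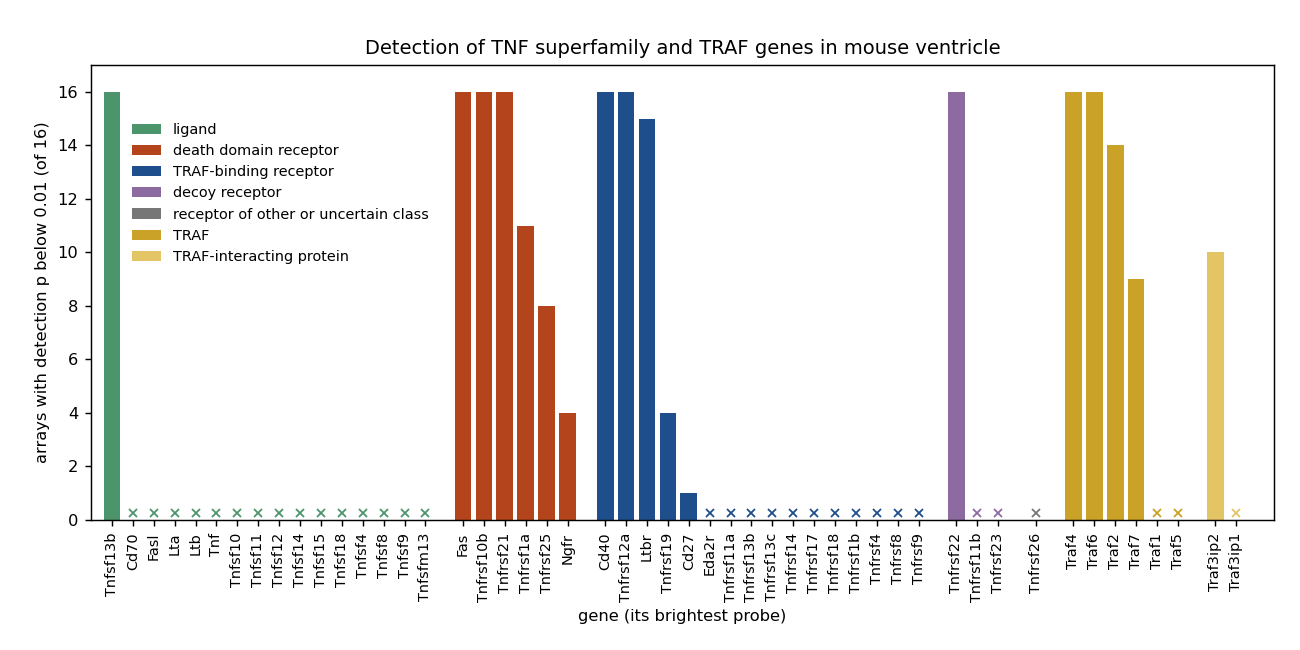
Number of the 16 arrays on which the brightest probe of each of 50 genes had a detection p-value below 0.01, with genes grouped by role on the horizontal axis. Crosses mark genes detected on none; 1 ligand, Tnfsf13b, stands at 16 and the other 15 ligands at 0, while all 6 death domain receptors lie between 4 and 16.

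For most receptors that were detected, the ligand was not. Fas was detected on all 16 arrays and Fasl on none. Tnfrsf10b, the mouse TRAIL receptor, was detected on 16 arrays and its ligand Tnfsf10 on none. Tnfrsf12a, the receptor of TWEAK, was detected on 16 and the TWEAK gene Tnfsf12 on none, nor was the overlapping Tnfsfm13 locus. Ltbr, which binds lymphotoxin and LIGHT, was detected on 15 arrays, whereas Lta, Ltb and Tnfsf14 were detected on none. The 3 probes of Tnfrsf1a, the death domain receptor of TNF, were detected on 11 to 12 arrays, and neither Tnf nor the other TNF receptor, Tnfrsf1b, was detected on any. Tnfsf13b ran the other way, since its receptors Tnfrsf13b (TACI), Tnfrsf13c (the BAFF receptor) and Tnfrsf17 (BCMA) were not detected on any array. The decoy receptor Tnfrsf11b (osteoprotegerin) and Eda2r were not detected on any array either.

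Few members were called in any comparison. A probe was called where limma, fitted to all 25697 probes and 16 arrays, gave P below 0.005, the threshold of the study's methods, and adjusted p-values are Benjamini-Hochberg values over all probes. Between BACHD and WT at 3 mo, 2 of 83 probes were called, Tnfrsf25 higher and Tnfrsf19 lower, against 0.483% of all probes. At 15 mo none of the 83 was called, against 0.895% of all probes, and 3 had P below 0.05, against 6.12% of all probes. Between 15 and 3 mo in WT mice 2 probes were called, both of Tnfsf13b and both higher, against 2.77% of all probes in either direction and 1.67% higher. In BACHD mice 4 were called, Tnfsf13b by both probes and Tnfrsf19 higher and Cd40 lower, against 5.15% of all probes and 2.69% higher. The shares with age were close to those of all probes. For a genotype difference that itself differed between the ages 1 probe was called, Tnfrsf19, against 0.611% of all probes.

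After adjustment over all probes, only calls of the age comparisons were left. At an adjusted p below 0.05 there were 2 probes in WT, against 0.712% of all probes, and 3 in BACHD, against 3% of all probes. No member passed in the genotype comparisons, where the smallest adjusted p was 0.849 at 3 mo and 0.709 at 15 mo. The members as a body lay near 0. Their median log2 difference was 0.01 at 3 mo and -0.01 at 15 mo for BACHD minus WT, and 0.02 in WT and 0.01 in BACHD for 15 minus 3 mo. Medians over all probes in the same comparisons lay between -0.0016 and 0.0030. The difference was above 0 for 43, 41, 48 and 44 of the 83 probes in these 4 comparisons.

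Among the ligands, Tnfsf13b rose with age in both genotypes. It encodes BAFF, a cytokine made mainly by myeloid and stromal cells that keeps B cells alive. On its first probe (ILMN_1226099) the normalized log2 level was 6.21, 6.33, 6.36 and 6.29 in the 4 WT mice at 3 mo and 7.18, 7.16, 7.27 and 6.88 at 15 mo. In BACHD mice it was 6.45, 6.15, 6.16 and 6.31 at 3 mo and 7.03, 7.04, 7.07 and 7.27 at 15 mo. Every aged mouse lay above every young one, whichever the genotype. On the second probe (ILMN_2507286) the WT values were 6.14, 6.32, 5.92 and 6.08 at 3 mo and 7.02, 7.31, 6.75 and 6.97 at 15 mo. The BACHD values on this probe were 6.43, 6.22, 6.45 and 5.89 at 3 mo and 7.09, 7.09, 6.88 and 7.34 at 15 mo, so again no young and aged mice overlapped. The probe was detected on all 16 arrays, as was the first.

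The rise of Tnfsf13b was 1.77-fold in WT on the first probe (log2 difference 0.83, SE 0.091, limma adjusted p 0.000475) and 1.87-fold on the second (0.90, SE 0.14, adjusted p 0.00628). In BACHD it was 1.79-fold (0.84, SE 0.091, adjusted p 0.000352) and 1.80-fold (0.85, SE 0.14, adjusted p 0.00529). By P, the first probe ranked 9 of all 25697 probes in WT and 11 in BACHD. The exact two-sided permutation test over the 35 splits of 8 arrays gave 0.0286 for each of these 4 differences, which is the smallest value it can give. The rise did not differ detectably between the genotypes: BACHD minus WT of the age difference was 0.01 (95% interval -0.27 to 0.29) on the first probe and -0.05 (-0.48 to 0.38) on the second. BACHD minus WT for Tnfsf13b was -0.03 at 3 mo and -0.02 at 15 mo on the first probe, with intervals from -0.22 to 0.16 and -0.21 to 0.17.

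The size of the Tnfsf13b rise depended on the background correction, and its call did not. Without background correction, in the values the authors processed, the log2 difference was 0.39 to 0.41 over both probes and genotypes, with adjusted p-values of 0.000240 to 0.00512. Leaving out any 1 mouse kept the call on both probes in both genotypes, with differences of 0.73 to 0.99. Without the 4 arrays of raised atrial markers the WT difference was 0.93 on the first probe and 0.77 on the second, and the BACHD difference 0.77 and 0.84. All 4 remained called, with the second probe in WT at an adjusted p of 0.0923.

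**Figure D2:**
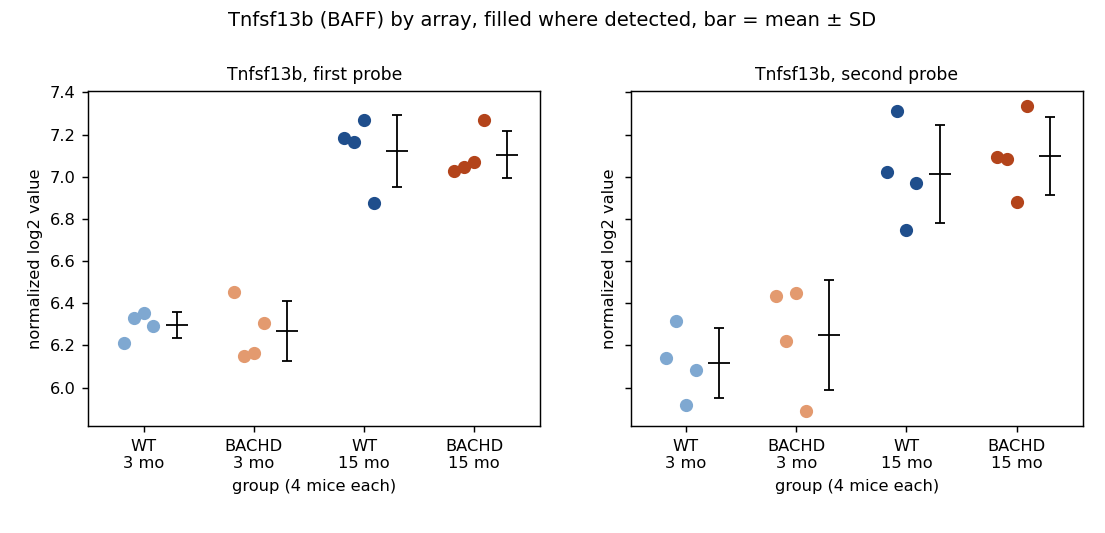
Normalized log2 value of Tnfsf13b on its 2 probes (vertical axis) in the 4 groups of 4 mice (horizontal axis), with filled points where the probe was detected and a bar at the mean ± SD. All 8 aged mice lie at 6.75 or higher and all 8 young mice at 6.45 or lower on both probes.

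Markers of cells that make or respond to BAFF were measured on the same arrays. In whole ventricle, more cells of a type and more RNA per cell cannot be told apart. Of 5 macrophage markers measured, all detected, 0 were called in WT with age, and their mean level ran from 8.16 to 8.79 at 3 mo and from 8.20 to 8.38 at 15 mo. In BACHD mice 3 of the 5 fell with age (Adgre1, C1qa and C1qb), and the mean ran from 8.32 to 8.61 at 3 mo and from 7.71 to 8.18 at 15 mo. Of 4 B cell markers measured, Cd79a, Ms4a1 and Cr2 were detected on no array and 0 were called in any comparison. The B cell mean ranged from 5.01 to 5.20 in WT at 3 mo and from 4.83 to 5.53 at 15 mo, and from 4.91 to 5.22 and 4.90 to 5.36 in BACHD. Of 6 T cell markers, Cd3g was higher with age in WT (log2 difference 0.83, adjusted p 0.0112), although it and the others were near background, with 5 of the 6 (all but Cd3g) detected on no array. The T cell mean ran from 4.65 to 4.81 in WT at 3 mo and from 4.78 to 5.14 at 15 mo, and from 4.64 to 4.80 and 4.77 to 4.89 in BACHD. Of 7 fibroblast markers, 0 were called with age in WT. In BACHD 3 were lower with age, the collagens given below, and 4 were not called. The part of these cells in the Tnfsf13b difference was not tested.

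The other 15 ligands stayed at background on every array and none was called in any of the 5 tests. Tnf, the founding member of the family, lay between 4.37 and 5.30 over the 16 mice, and Tnfsf4, the ligand of OX40, between 4.35 and 4.93. The smallest P among them at 15 mo was that of Tnfsf4, with a BACHD minus WT difference of 0.28 (P 0.0144, adjusted p 0.709). With age in WT it was that of Fasl, the ligand of Fas, at -0.33 (P 0.0120, adjusted p 0.261), followed by a probe of Tnfsf14 (LIGHT) at 0.38 (P 0.0134, adjusted p 0.273). As both groups were at background for all of these, no fold is given.

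Among the death domain receptors, Tnfrsf25 was higher in BACHD than in WT mice at 3 mo. Tnfrsf25 (DR3) is the receptor of Tnfsf15 and is best known on lymphocytes. It and Tnfrsf19 are named in the study's own account of the young arrays, so their calls here are not independent of that choice. Its values (probe ILMN_2510383) were 5.60, 5.04, 5.10 and 5.56 in WT at 3 mo and 5.48, 6.52, 5.87 and 6.52 in BACHD. At 15 mo they were 5.46, 5.81, 5.74 and 5.57 in WT and 5.62, 5.65, 5.72 and 5.005 in BACHD. BACHD mouse 1 lay within the range of the young WT mice and the other 3 young BACHD mice above it, while the aged groups overlapped.

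The difference of Tnfrsf25 at 3 mo was 0.78 on the log2 scale (SE 0.22, limma P 0.00347, adjusted p 0.948; exact permutation p 0.0857). The probe was detected in 3 of 4 BACHD and in 0 of 4 WT mice at 3 mo, so the WT level is only a bound. Taking for each WT array the higher of the probe's own value and of the lowest value among detected probes, the BACHD mean was 1.37-fold higher. This value allows for background in WT alone. It does not allow for the spread between mice, and the BACHD mean includes mouse 1, in which the probe was not detected. The call was lost when WT mouse 2, WT mouse 3, BACHD mouse 2 or BACHD mouse 4 was left out, with the difference between 0.63 and 0.98 over the 8 such runs. It was also lost in a fit to the young arrays alone (P 0.0127). The difference was 0.26 in the authors' processed values and 0.48 with an offset of 50, both called. At 15 mo the difference was -0.15 (P 0.525), and from 3 to 15 mo the BACHD level differed by -0.60 (P 0.0173), a comparison that shares the young BACHD arrays with the first. The test of whether the genotype difference changed with age gave -0.92 (SE 0.32, P 0.0108), not past the threshold. With the probes of a gene averaged it was called (-0.56, P 0.00477), and that of Tnfrsf19 was not. The second Tnfrsf25 probe was detected on no array.

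The other death domain receptors showed no called difference in any of the 5 tests. Fas, the receptor of Fas ligand, had values of 8.66, 9.14, 9.03 and 9.07 in WT at 3 mo and 8.54, 8.67, 8.54 and 9.09 in BACHD on its brighter probe. These groups overlapped, with a difference of -0.26 (95% interval -0.61 to 0.08). A second detected probe of Fas gave -0.36 (-0.73 to 0.01). At 15 mo the Fas difference was 0.0047 (-0.34 to 0.35) on the brighter probe. Tnfrsf10b, the TRAIL receptor that signals death in mice, differed by -0.30 with age in BACHD (P 0.0274, adjusted p 0.243), with the aged mice at 7.64, 7.15, 7.61 and 7.50 below the young at 7.71, 7.71, 7.87 and 7.79. Without the 4 arrays of raised atrial markers it was called between BACHD and WT at 15 mo, at -0.52 (P 0.00296, adjusted p 0.259), from 2 mice per group; with all 16 arrays it was -0.22 (P 0.0970). Tnfrsf21 (DR6) differed by -0.31 with age in BACHD (P 0.0410). It was called when BACHD 3 mo mouse 3 was left out (-0.43, limma P 0.00408, adjusted p 0.103). The 3 probes of Tnfrsf1a differed by -0.38 to 0.12 between the genotypes at 3 mo. Ngfr, the p75 neurotrophin receptor, was detected in 2 WT and 2 BACHD mice at 15 mo and in none at 3 mo. It was called with age in WT when WT 15 mo mouse 4 was left out (0.57, P 0.00449), or all 4 arrays of raised atrial markers (0.73, P 0.00262), and not with all arrays (0.40, P 0.0513). As it was at background in all 4 young WT mice, its mean was set against the lowest detected values on those arrays. This gave 1.05-fold with all arrays, without allowance for the spread between mice.

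Among the TRAF-binding receptors, Tnfrsf19 was called between BACHD and WT mice at 3 mo and with age in BACHD, at levels near background. Tnfrsf19 (TROY) is an orphan receptor known mainly from the developing nervous system and from hair follicle and intestinal stem cells. Its values (probe ILMN_2793522) were 5.58, 5.78, 6.12 and 5.26 in WT at 3 mo and 5.24, 4.77, 4.95 and 5.11 in BACHD. At 15 mo they were 5.48, 5.52, 5.86 and 5.44 in WT and 5.66, 5.59, 5.61 and 6.08 in BACHD. All 4 young BACHD mice lay below every other mouse of the study, by a narrow margin for the highest of them. The probe was detected in only 2, 0, 1 and 1 mice of the WT 3 mo, BACHD 3 mo, WT 15 mo and BACHD 15 mo groups, so the values of the young BACHD mice are bounds near background.

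The Tnfrsf19 difference at 3 mo was -0.67 (SE 0.17, limma P 0.00107, adjusted p 0.849; exact permutation p 0.0286), and it was called in all 8 runs that left out 1 mouse. Since the probe was detected in 0 of 4 young BACHD mice, this is a difference from a group at background. Set against the lowest value of detected probes on those arrays, no fold above 1 was left. In BACHD from 3 to 15 mo the difference was 0.72 (SE 0.17, limma P 0.000599, adjusted p 0.0313). Set against the lowest detected values of the young arrays it came to 1.00-fold, without allowance for the spread between mice. In the authors' processed values these differences were -0.20 and 0.21, and with an offset of 50 they were -0.37 and 0.40, all still called. Both comparisons use the same 4 young BACHD arrays. At 15 mo the genotypes differed by 0.16 (95% interval -0.19 to 0.51) and with age the WT mice by -0.11 (-0.47 to 0.24). The change of the genotype difference between the ages was 0.83 (SE 0.24, P 0.00299, adjusted p 0.759). This call was lost in 8 of the 16 runs without 1 mouse, where the values ran from 0.69 to 0.97. Without the 4 arrays of raised atrial markers the BACHD age difference was 0.61 (P 0.0139) and the change between the ages 0.63 (P 0.0565), neither called. The second Tnfrsf19 probe was at background on every array.

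Cd40, the receptor by which T cells activate B cells, macrophages and endothelium, was lower in aged than in young BACHD mice. Its brightest probe (ILMN_3115796) read 6.99, 6.74, 6.75 and 6.60 in BACHD at 3 mo and 6.05, 6.04, 6.72 and 5.95 at 15 mo, and was detected on every array. In WT it read 6.79, 7.18, 7.08 and 6.48 at 3 mo and 6.80, 6.67, 6.49 and 6.40 at 15 mo. Aged BACHD mouse 3 lay among the young mice and the other 3 aged BACHD mice below all 13 remaining mice. The BACHD age difference was -0.58 (SE 0.17, P 0.00421, adjusted p 0.0874; exact permutation p 0.0571). It passed the threshold in 2 of 8 runs without 1 mouse, those without BACHD 15 mo mouse 3 (-0.76, adjusted p 0.00944) and without BACHD 3 mo mouse 4 (-0.64), and failed without BACHD mice 1, 2 or 3 at 3 mo or 1, 2 or 4 at 15 mo. It also failed in the authors' processed values (-0.25, P 0.00589), with an offset of 50 (-0.42, P 0.00647), after median scaling (-0.57, P 0.0101) and in a fit to the BACHD arrays alone (P 0.00709). Without mouse 3 the genotype difference at 15 mo was called as well, at -0.58 (P 0.00162), against -0.40 with all arrays (P 0.0351). That mouse is 1 of the 4 with raised atrial markers, and without all 4 the BACHD age difference was -0.73 (P 0.00194, adjusted p 0.0689). In WT the age difference was -0.29 (95% interval -0.66 to 0.08), and the difference between the genotypes in it was -0.29 (P 0.249). The other 3 probes of Cd40 were detected on 1 array at most. With age in BACHD 3 of 5 macrophage markers fell, as given above. Between BACHD and WT at 15 mo the difference was above 0 for 0 of the 5, with a median of -0.29, and 1 was called, Adgre1 (-0.61). Their part in the Cd40 differences was not tested.

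Tnfrsf12a (Fn14), the TWEAK receptor, showed no called difference. It read 9.91, 10.18, 10.01 and 10.85 in WT and 10.26, 10.57, 10.62 and 10.60 in BACHD at 3 mo. At 15 mo it read 9.62, 9.98, 10.60 and 10.06 in WT and 9.87, 10.24, 9.83 and 9.98 in BACHD. The aged BACHD mice all lay below the young BACHD mice, whereas the WT ages overlapped. With age the BACHD difference was -0.53 (SE 0.21, P 0.0204, adjusted p 0.205; exact permutation p 0.0286) and the WT difference -0.17 (95% interval -0.61 to 0.27). The BACHD difference was called in a fit to the BACHD arrays alone (P 0.00123) and after median scaling (-0.61, P 0.00465). Without the 4 arrays of raised atrial markers it was -0.46 (P 0.143). Of 7 fibroblast markers 3 fell with age in BACHD, the collagens Col1a1 (-1.25), Col1a2 (-0.82) and Col3a1 (-0.92), and 4 were not called, with Lum at -0.11 and Pdgfra, Dcn and Tcf21 at 0.03, 0.05 and 0.14. The mean of the list ran from 8.62 to 8.67 at 3 mo and from 8.07 to 8.54 at 15 mo. Their part was not tested. Ltbr, the lymphotoxin receptor, differed by 0.19 at 3 mo and 0.15 at 15 mo between the genotypes and by 0.14 and 0.09 with age in WT and BACHD, all with intervals across 0. Tnfrsf22, a decoy receptor for TRAIL in mice, differed by 0.10 and 0.04 between the genotypes and by 0.29 and 0.22 with age, likewise uncalled. A second Tnfrsf22 probe, detected on 6 arrays, went the other way at 3 mo (mean 5.45 in WT and 5.23 in BACHD) and was not called either.

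**Figure D3:**
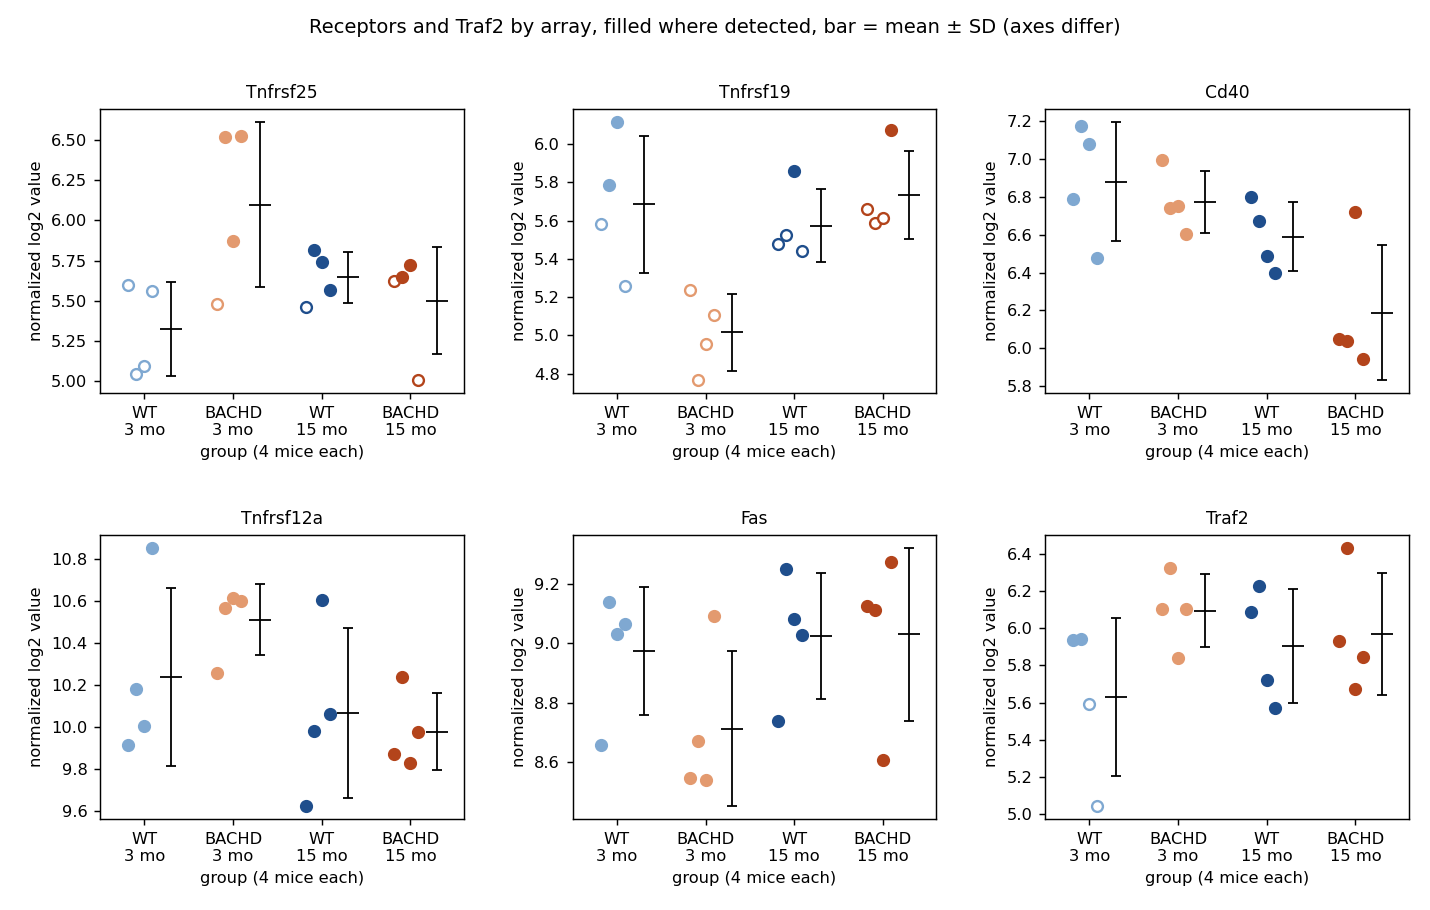
Normalized log2 value (vertical axes, which differ) of 5 receptors and of Traf2 in the 4 groups of 4 mice, with filled points where the probe was detected and bars at the mean ± SD. Tnfrsf25 is detected in 3 of 4 young BACHD and in 0 young WT mice, Tnfrsf19 in 0 young BACHD mice, and BACHD 15 mo mouse 3 stands at 6.72 for Cd40, above the other 3 of its group.

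None of the TRAFs was called. Traf2, the adaptor that joins TNF receptors to NF-κB and JNK, read 5.94, 5.94, 5.59 and 5.04 in WT and 6.10, 6.32, 5.84 and 6.10 in BACHD at 3 mo, with an overlap of 1 BACHD mouse. Its difference was 0.46 (95% interval 0.02 to 0.91; limma P 0.0418, adjusted p 0.969) at 3 mo and 0.07 (-0.38 to 0.51) at 15 mo. Traf6, which serves CD40 and the interleukin-1 and Toll-like receptors, was the most precisely measured, with 0.15 (SE 0.076, P 0.0651) at 3 mo and -0.03 at 15 mo. Its age differences were 0.11 in WT and -0.07 in BACHD. Traf4 differed by 0.01 and 0.17 and Traf7 by 0.36 and 0.07 between the genotypes at 3 and 15 mo. Traf3ip2 (Act1), the adaptor of interleukin-17 receptors, differed by -0.12 and -0.09. Traf1 and Traf5 were detected on no array.

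**Figure D4:**
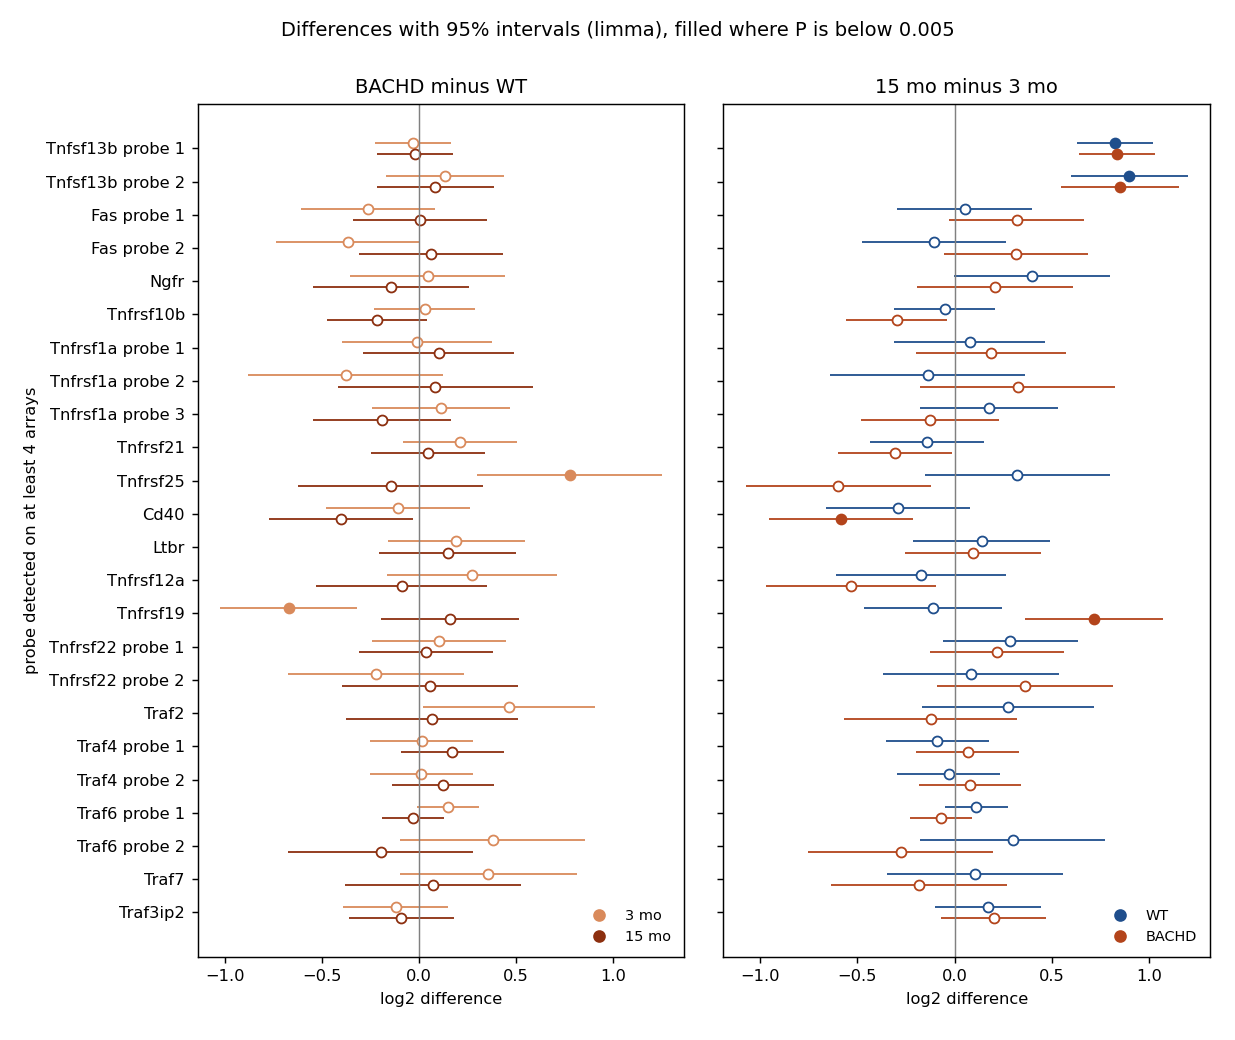
Log2 differences (horizontal axes) with 95% intervals for the 24 member probes detected on at least 4 arrays (vertical axis), BACHD minus WT on the left and 15 minus 3 mo on the right, filled where limma P was below 0.005. Both Tnfsf13b probes stand to the right of 0 in both genotypes with age and near 0 between the genotypes, and the only other filled points are Tnfrsf25 and Tnfrsf19 at 3 mo and Cd40 and Tnfrsf19 with age in BACHD.

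The genes downstream of these receptors were mostly detected, and their calls are set beside the shares of all probes given above, from 0.483% to 5.15%. Of 27 measured genes of NF-κB and MAP kinase signalling, 22 were detected on at least 4 arrays, 0 were called between the genotypes at either age and 0 with age in WT. In BACHD with age 1 was called, Mapk8 (JNK1), which fell from 8.73, 8.61, 8.68 and 8.59 to 8.40, 8.21, 8.32 and 8.15, with no overlap (difference -0.38, SE 0.081, adjusted p 0.0196). Without the 4 arrays of raised atrial markers it was -0.35 (P 0.00224). Mapk8 in WT differed by 0.01 with age, and the change of its genotype difference between the ages was called (-0.39, P 0.00374, adjusted p 0.759). The medians of this list were 0.02 and -0.04 between the genotypes at 3 and 15 mo and 0.08 and 0.05 with age in WT and BACHD. Rela, the NF-κB subunit p65, differed by -0.04 at both ages between the genotypes.

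Of 10 measured genes of death signalling, among them Casp8, Fadd and Ripk3, 0 were called in the 5 tests. Casp8, the initiator caspase of death receptors, differed by -0.30 with age in BACHD and by -0.12 in WT. Of 18 inducible NF-κB targets, 9 were detected on at least 4 arrays and 1 was called, Vcam1, an endothelial adhesion molecule, which rose with age in WT. It read 8.29, 8.46, 8.22 and 8.54 at 3 mo and 8.79, 9.07, 8.83 and 8.70 at 15 mo (difference 0.47, SE 0.12, adjusted p 0.105). Without the arrays of raised atrial markers it was 0.43 and not called (P 0.0114). In BACHD the Vcam1 difference was 0.22, and the change between genotypes, -0.25, was not called. Il6, Ccl2 and Cxcl10 were detected on no array. Of 5 superfamily or adaptor genes outside the symbol rule (Cd40lg, Eda, Edar, Edaradd and Relt), 0 were called and Relt was detected on all 16 arrays.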

How the data were processed

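Ventricle RNA of 16 mice was hybridised to Illumina MouseRef-8 v2.0 bead arrays, 1 array per mouse and 4 per group. The authors deposited the signal intensity of each of 25697 probes without background correction, with a detection p-value per probe and array, extracted with BeadStudio (version not given in the sources used here). The authors also deposited processed log2 values, which equal the quantile normalized log2 of the intensity to within 4.997e-09 and hold no background correction. Groups came from the sample labels, and ages and the P threshold of 0.005 from the study's methods.

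From the deposited intensity, normexp with an offset of 16 (its noise estimated through the detection p-values), then quantile normalization and log2 were applied (neqc, limma 3.58.1, R 4.3.3). One limma model of the 4 groups over all 16 arrays gave 5 contrasts: genotype at each age, age in each genotype, and the difference between the ages of the genotype effect. P-values were adjusted over all 25697 probes by Benjamini-Hochberg. The model was checked on simulated data. Single members had an exact permutation test over the 35 splits of 8 arrays. Levels of different probes were compared only to pick the brightest probe of a gene and the brightest members, and to set members against the lowest detected value.

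Symbols came from the platform's annotation: 23978 probes had a name and 1719 had none here, and all 83 members matched RefSeq by gene ID. The members, the lists of other genes and the rule for named genes (called probes, the 3 smallest P-values in each direction per contrast, Tnfrsf25 and Tnfrsf19, the brightest detected members, and a fixed list of well-known members) were chosen with earlier results of these data known. The brightest probe stood for a gene. Alternatives were the authors' processed values, an offset of 50, median scaling, a detection filter, a fit to the arrays of each comparison, trended and robust variances, averaged probes, the replicate number as a block, and leaving out each mouse. Leaving out the 4 arrays of raised atrial markers was added after seeing the data. A slide effect was not fitted, since the headers name no slides.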

Additional observations from a re-analysis of the deposited data

Results flagged for a closer look

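The search covered 21 member probes, those called or among the 3 smallest P-values in a direction of a contrast. Of these, Tnfsf11, Tnfrsf4 and Tnfrsf11a were at background on every array and are not described singly. Each group of 4 mice was searched for a mouse far from the other 3 (84 groups), and 7 stood out. By chance about 1 in 20 groups would, but that rate is for probes not chosen by P in these same groups. BACHD 15 mo mouse 3 had 6.72 for Cd40, against 5.95 to 6.05 in the other 3. BACHD 3 mo mouse 1 had 10.26 for Tnfrsf12a, against 10.57 to 10.62. BACHD 15 mo mouse 4 had 6.08 for Tnfrsf19, against 5.59 to 5.66, and 5.005 for the detected probe of Tnfrsf25, against 5.62 to 5.72. WT 15 mo mouse 1 had 4.45 for the second Tnfrsf25 probe, against 4.66 to 4.70. WT 3 mo mouse 3 had 4.82 for Tnfrsf11b, against 4.54 to 4.58, and WT 3 mo mouse 2 had 4.83 for a Tnfsf14 probe, against 4.61 to 4.63. The last 3 are probes at background on every array.

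The BACHD minus WT difference of Tnfrsf19 stood out because it differed between the ages in a direct test, by 0.83 on the log2 scale (limma P 0.00299, adjusted p 0.759). It was negative at 3 mo (-0.67) and 0.16 at 15 mo.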

How the results depend on the processing

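Tnfsf13b kept its direction and its call with age in both genotypes under all alternatives, on both probes. The number of member probes called between BACHD and WT at 3 mo, 2 in the main fit, was 1 with only the arrays of the comparison (without Tnfrsf25), 1 with the probes of a gene averaged (without Tnfrsf19), 1 without the 4 arrays of raised atrial markers (without Tnfrsf25), and 1 to 2 when 1 mouse was left out. At 15 mo, 0 in the main fit, it was 1 with trended and robust variances (Tnfsf4, adjusted p 0.569), 2 without the atrial arrays (Tnfrsf10b and Tnfsf14), and 0 to 1 without 1 mouse: Tnfsf4 without BACHD mouse 1, the second Tnfrsf25 probe without WT mouse 1 and Cd40 without BACHD mouse 3. With age in WT it was 4 without the atrial arrays (Tnfsf14 at 0.66 and Ngfr at 0.73 beside Tnfsf13b) and 2 to 3 without 1 mouse. With age in BACHD it was 3 to 5; the Cd40 call was lost under 4 other settings, as given above. For the change between the ages, 1 in the main fit, it was 0 to 2 without 1 mouse. It was 0 with the authors' processed values, with an offset of 50 and with the replicate block. Averaging probes called Tnfrsf25 in place of Tnfrsf19. Leaving out the atrial arrays called a Tnfsf14 probe at background on every array (-0.73, limma P 0.000851) in place of Tnfrsf19, from 2 mice per aged group. The BACHD minus WT difference of a Tnfsf14 probe at 15 mo, 0.16, turned to -0.021 when the probes were averaged, since the other 2 probes differed by -0.23 and 0.0035.

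Samples of the same number deviated together only in part. In the comparisons of genotype at 3 and 15 mo and of age in WT and BACHD, the correlation of their deviations was above 0.1 in 1, 2, 0 and 3 of 4 pairs. It ran from -0.50 to 0.13, from 0.05 to 0.31, from -0.46 to 0.08 and from 0.06 to 0.23. The mice were not taken as pairs in the main fit, and whether the numbers mark a shared run was not tested. With the replicate block the counts were 2, 0, 2 and 4. At 3 mo the block called Traf2 (P 0.00357) in place of Tnfrsf25 (P 0.00742). With 4 mice per group, and with 57 of 83 probes detected on no array, most members could only be bounded.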
